A study of Penicillium oxalicum with 6 samples.

Results

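*POX_c04047* and *POX_c04185* of the filamentous fungus *Penicillium oxalicum* are listed in the study's gene table as the cellodextrin transporter genes *cdt-c* and *cdt-d*. They were taken by gene ID and are 2 of the 11159 rows measured, of which 9822 carry annotated gene IDs. Both were chosen by ID with their FPKM values in the 2 strains already in view, so those values are what selected them. Differences between strains in these genes are therefore described with their errors and without a test.

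The study compared mycelia of GXUR001 (labelled 1387-3890) with its parent TE4-10. In GXUR001 the repressor gene *PoxCxrC* is deleted and the activator gene *PoxAmyR* (*POX_f08097*) is overexpressed in the TE4-10 background. Both changes were made in the same strain, so their effects cannot be told apart. TE4-10, which the labels give as WT, is itself a product of random mutagenesis with ethyl methanesulfonate and Co60 γ-rays. Its ancestor A2-13 came from a *PoxKu70* deletion strain that overexpresses the glucoamylase gene *PoxGA15A* from a cellulose-inducible promoter, so both strains share this background. Glucose pre-growth lasted 24 h and was followed by 24 h in inducing medium. Its carbon source is wheat bran with Avicel, a microcrystalline cellulose, in the methods of the paper but raw starch in the labels, and this was not resolved. The libraries were replicates 1, 2 and 3 of GXUR001 (n = 3) and replicates 1 and 3 of TE4-10 (n = 2), while TE4-10 replicate 2 was not analysed here. The paper describes them as biological replicates.

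Cellodextrins are short chains of β-linked glucose that cellobiohydrolases and endoglucanases release from cellulose. Cellodextrin transporters, membrane proteins of the major facilitator family of sugar porters, carry them into the hypha, where β-glucosidases split them to glucose. In *Neurospora crassa* such transporters support growth on cellulose and bear on the induction of cellulase genes. The values for their mRNAs below are FPKM, fragments scaled to gene length and to library size, so that levels of different genes can be set side by side. In bulk mycelium, fewer hyphae that express a gene and less of its mRNA per hypha cannot be told apart.

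*PoxAmyR*, the overexpressed gene, was at 90.6, 84.1 and 74.3 FPKM in GXUR001 replicates 1, 2 and 3, against 62.8 and 66.7 FPKM in TE4-10 replicates 1 and 3. Its log2 fold change was 0.62 ± 0.16 (SE, limma adjusted p = 0.0489), and it was called in 5 of the 14 alternatives. *PoxCxrC* was not checked because none of the tables used here gives its gene ID. Across all rows, Pearson's *r* on log2(FPKM + 1) was 0.978 to 0.984 within GXUR001, 0.97 for the TE4-10 pair and 0.95 to 0.968 between strains. Of the 30 rows that reached 5000 FPKM in any library, 4 were over 16-fold higher in TE4-10 replicate 3 than in TE4-10 replicate 1. Picked by that difference, these 4 rows held 0.0365% of FPKM in TE4-10 replicate 1 against 4.74% in TE4-10 replicate 3. Their share was 11.0%, 7.32% and 5.99% in GXUR001 replicates 1, 2 and 3. Of the 4, 3 lie outside the annotation, and the opposite direction was not searched. Fold changes below were taken after libraries were rescaled by median ratios. Over all rows tested the log2 fold change then had a median of 0.00, compared with -0.26 for FPKM as deposited. A step of 1 read, sought in the lowest FPKM values within a preset window, gave 43400 to 115000 reads on *POX_c04047* per library. For *POX_c04185* it gave 11700 to 34800 reads. The window largely set the step, and the read totals in the paper were not used, so these numbers are only rough. On them the counting error at the lowest was 0.48% and 0.92%, far below the spread between replicates.

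*POX_c04047* (*cdt-c*) was the most abundant of the 3 genes named as cellodextrin transporters and was lower in GXUR001. It had 2685, 2535 and 2188 FPKM in GXUR001 replicates 1, 2 and 3, against 5928 and 3528 FPKM in TE4-10 replicates 1 and 3. All GXUR001 libraries lay below both TE4-10 libraries, and the TE4-10 libraries differed more from each other than the GXUR001 libraries did. The means were 2469 ± 255 FPKM (SD, n = 3) in GXUR001 and 4728 ± 1697 FPKM (SD, n = 2) in TE4-10. By level it held places 50, 58 and 68 among all rows in GXUR001, against places 16 and 31 in TE4-10. After rescaling the strains still did not overlap, but GXUR001 replicate 1 (3055 FPKM) lay close to TE4-10 replicate 3 (3195 FPKM). The log2 fold change of *POX_c04047* was then -0.62 ± 0.26 (SE), a level 0.651 times that of TE4-10. The size rested largely on TE4-10 replicate 1, without which the log2 fold change was -0.28 ± 0.22 (SE).

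*POX_c04185* (*cdt-d*) was lower in GXUR001 by a wider margin. It had 791, 792 and 688 FPKM in GXUR001 replicates 1, 2 and 3, against 2084 and 1416 FPKM in TE4-10 replicates 1 and 3. The strains did not overlap, and the TE4-10 libraries again lay further apart than the GXUR001 libraries. The means were 757 ± 59.7 FPKM (SD, n = 3) in GXUR001 and 1750 ± 472 FPKM (SD, n = 2) in TE4-10. The gene held places 218, 247 and 305 in GXUR001, against 75 and 116 in TE4-10. After rescaling the log2 fold change was -0.91 ± 0.20 (SE), a level 0.533 times that of TE4-10. Leaving out TE4-10 replicate 1 gave -0.66 and leaving out TE4-10 replicate 3 gave -1.16.

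For both genes every rescaled GXUR001 value lay below every TE4-10 value, as was the case for 26.5% of the 9636 rows tested. Of all these rows 17.8% were called in either direction at an adjusted p under 0.05, which is given as the background for the calls on other genes below. Together the genes made up 0.283%, 0.269% and 0.222% of summed FPKM in the GXUR001 libraries, against 0.629% and 0.406% in the TE4-10 libraries. Set against actin (*POX_c04656*), the internal reference of the study's RT-qPCR, the separation of *POX_c04047* was lost. Its FPKM was 1.534, 1.503 and 1.326 times that of actin in GXUR001, against 2.909 and 1.531 times in TE4-10, so that GXUR001 replicate 1 was level with TE4-10 replicate 3. *POX_c04185* stayed apart at 0.452, 0.469 and 0.417 times actin in GXUR001, against 1.02 and 0.614 times in TE4-10. Actin itself had a log2 fold change of -0.08 ± 0.14 (SE, limma adjusted p = 0.718).

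**Figure D1:**
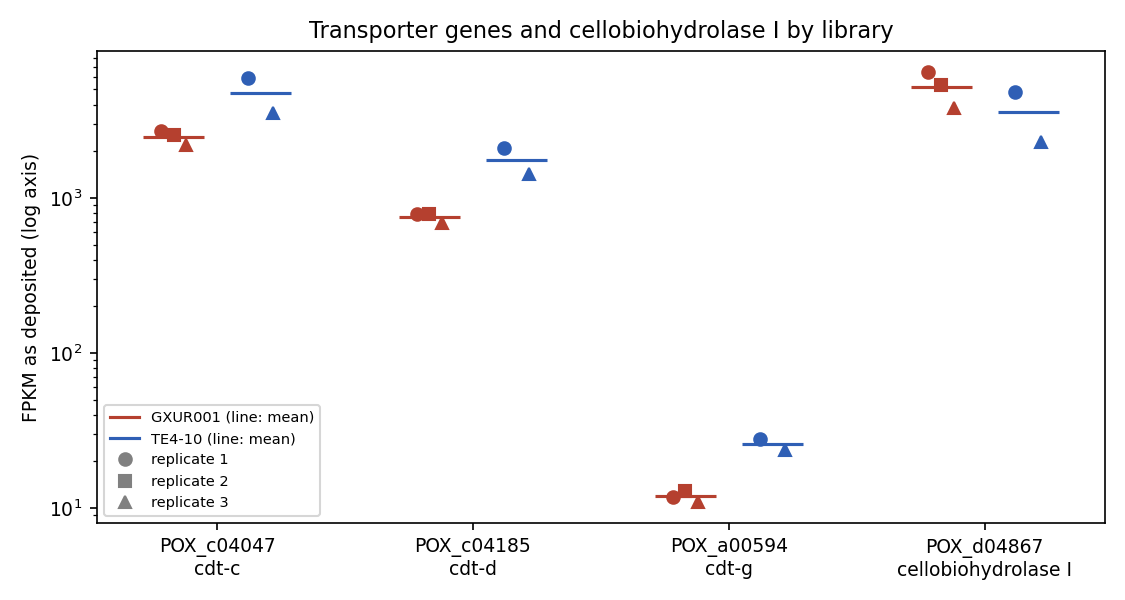
FPKM as deposited (log axis) of the 3 genes named as cellodextrin transporters and of cellobiohydrolase I, with 1 point per library and a line at the strain mean (GXUR001, n = 3; TE4-10, n = 2). The transporter genes sit lower in all GXUR001 libraries, whereas the cellobiohydrolase I values of the strains overlap.

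*POX_a00594*, listed as *cdt-g*, is the remaining gene with this name in the part of the gene table at hand, which holds genes the study called changed on these samples. It was far less abundant, with 11.84, 12.94 and 11.01 FPKM in GXUR001 replicates 1, 2 and 3, against 28.1 and 23.7 FPKM in TE4-10 replicates 1 and 3. The GXUR001 values again lay below both TE4-10 values, and the TE4-10 libraries were closer to each other than for *cdt-c* or *cdt-d*. *POX_c04185* exceeded it 61.2 to 66.8 times in GXUR001 and 59.7 to 74.2 times in TE4-10. Its log2 fold change was -0.79 ± 0.14 (SE). The order of levels was thus *cdt-c*, *cdt-d*, *cdt-g* in each of the 5 libraries, with no overlap between neighbours in that order.

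The ratio of *cdt-c* to *cdt-d* was higher in each GXUR001 library than in both TE4-10 libraries. *POX_c04047* had 3.40, 3.20 and 3.18 times the FPKM of *POX_c04185* in GXUR001 replicates 1, 2 and 3, against 2.84 and 2.49 times in TE4-10 replicates 1 and 3. How many other gene pairs separate in this way was not counted, and both genes were chosen with the strain values in view. The mean ratio was 3.26 ± 0.119 (SD, n = 3) in GXUR001 and 2.67 ± 0.250 (SD, n = 2) in TE4-10, a log2 difference of 0.29 ± 0.08 (SE). A ratio within a library does not depend on the scaling of libraries. The log2 difference was 0.20 when TE4-10 replicate 3 was left out and 0.39 when TE4-10 replicate 1 was.

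Cellobiohydrolase I (*POX_d04867*), which cuts cellobiose from the ends of cellulose chains, served as a reference within each library. It had 6461, 5357 and 3787 FPKM in GXUR001 replicates 1, 2 and 3, against 4823 and 2297 FPKM in TE4-10 replicates 1 and 3. The strains overlapped, since TE4-10 replicate 1 lay above GXUR001 replicate 3. Its log2 fold change was 0.89 ± 0.40 (SE, limma adjusted p = 0.182), which did not pass the threshold of 0.05.

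Relative to cellobiohydrolase I, both transporter genes were lower in each GXUR001 library than in each TE4-10 library, as were 37.3% of all rows tested. Because cellobiohydrolase I was itself higher in the GXUR001 mean, the median log2 ratio difference over the 9334 of these rows with FPKM above 0 in all libraries was -0.89, and the values below are to be read against it. *POX_c04047* had 0.416, 0.473 and 0.578 times the FPKM of cellobiohydrolase I in GXUR001 replicates 1, 2 and 3, against 1.23 and 1.54 times in TE4-10 replicates 1 and 3. The *cdt-c* mRNA was thus less abundant than that of the enzyme in each GXUR001 library and more abundant in each TE4-10 library. The log2 ratio differed by -1.50 ± 0.22 (SE). *POX_c04185* had 0.122, 0.148 and 0.182 times the FPKM of cellobiohydrolase I in GXUR001, against 0.432 and 0.617 times in TE4-10. Its log2 ratio differed by -1.80 ± 0.29 (SE). With 1 library left out, the differences ran from -1.67 to -1.34 for *POX_c04047* and from -2.05 to -1.54 for *POX_c04185*.

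**Figure D2:**
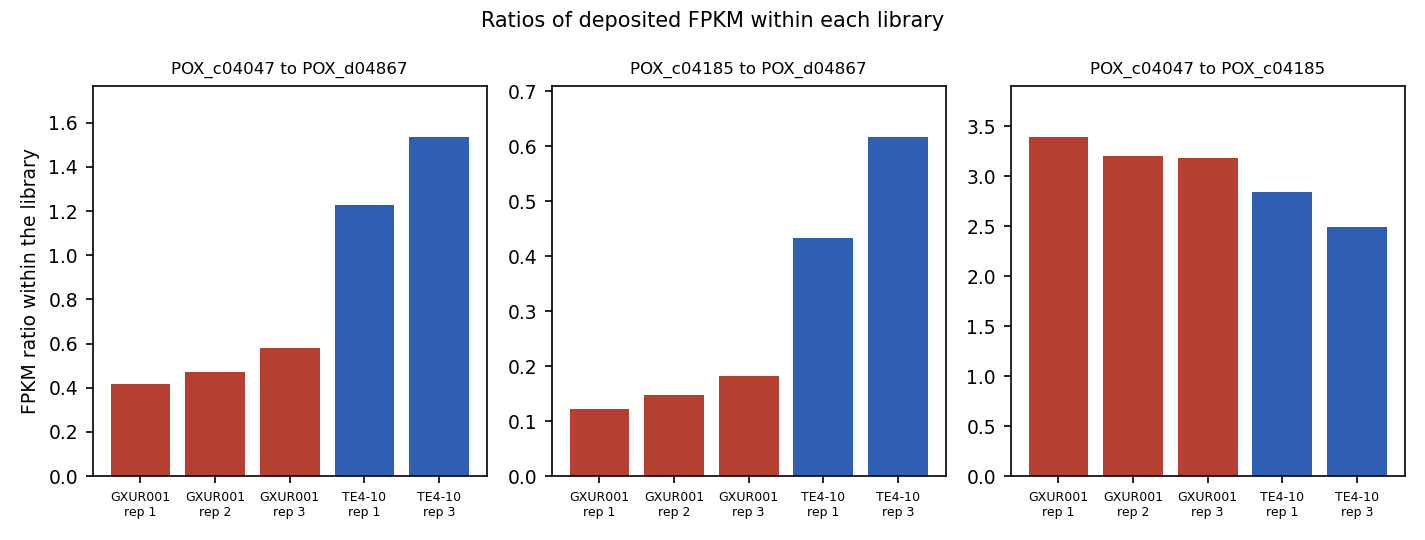
Ratios of deposited FPKM within each library (linear axes from 0), for each transporter gene over cellobiohydrolase I (*POX_d04867*) and for *POX_c04047* over *POX_c04185*. Red bars are GXUR001 libraries and blue bars TE4-10 libraries; the ratios to cellobiohydrolase I are at most 0.578 and 0.182 in GXUR001 and at least 1.23 and 0.432 in TE4-10.

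Within each strain, however, *cdt-c* and *cdt-d* and the cellobiohydrolase and endoglucanase genes were all higher in replicate 1 than in replicate 3 after rescaling. Between TE4-10 replicates 1 and 3 the log2 difference was 0.69 for *POX_c04047*, 0.50 for *POX_c04185* and 1.01 for cellobiohydrolase I. Of the 7153 rows with a mean of at least 10 FPKM, 95.7%, 92.3% and 98.1% had a lower difference. Between GXUR001 replicates 1 and 3 the differences were 0.48, 0.38 and 0.95, above those of 94.2%, 90.7% and 99.2% of these rows. The cellobiohydrolase II gene (*POX_d05671*) also differed in this direction, by 0.93 in TE4-10 and 0.60 in GXUR001, as did the endoglucanase genes *POX_a00030*, *POX_c03950* and *POX_d04883*. The GH3 β-glucosidase gene *POX_a00961* went the other way, by -0.61 in TE4-10 and -0.26 in GXUR001. The AA9 monooxygenase gene *POX_b02315* and the GH1 β-glucosidase gene *POX_a00456* had no common direction, with -0.20 and 0.43 in GXUR001, against 0.16 and -0.06 in TE4-10. What set these libraries apart was not tested.

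**Figure D3:**
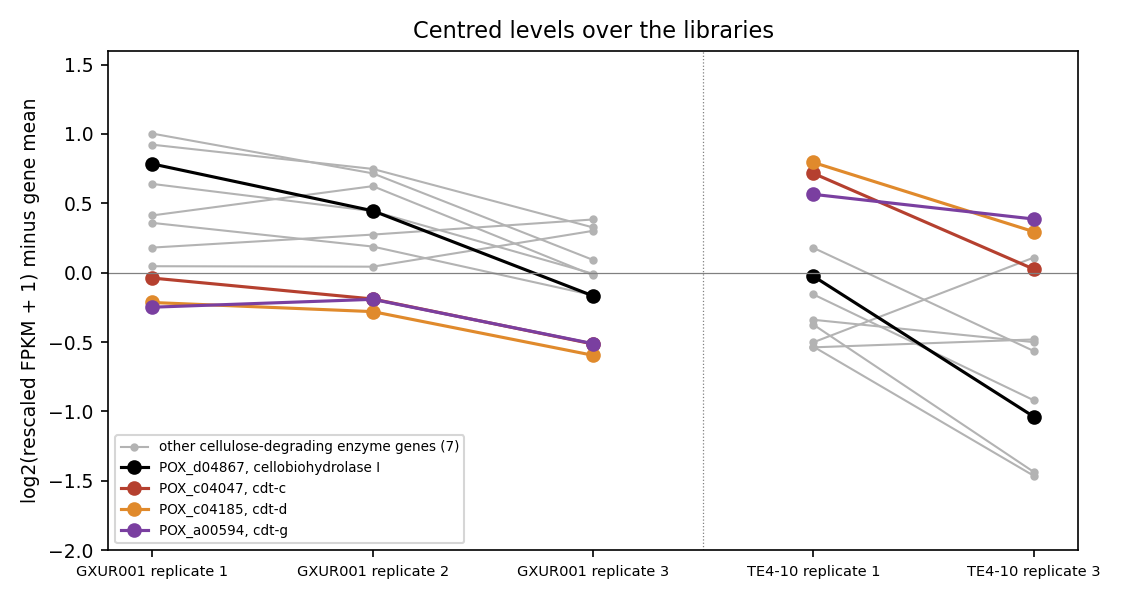
Levels of the 3 transporter genes and 8 cellulose-degrading enzyme genes in each library, as log2(rescaled FPKM + 1) minus the mean of the gene over the 5 libraries; lines only join the points of a gene within a strain. The transporter genes sit below their means in all GXUR001 libraries and above them in both TE4-10 libraries, while cellobiohydrolase I is highest in GXUR001 replicate 1 and lowest in TE4-10 replicate 3.

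Of the other genes on the route from cellulose to glucose, 2 of 8 were called higher in GXUR001 and 3 overlapped between the strains after rescaling (*POX_d04867*, *POX_a00030* and *POX_a00961*). The list of 8 held the cellobiohydrolase, endoglucanase, AA9 monooxygenase and β-glucosidase genes named in the gene table, which the study chose on these samples, so their direction is not independent evidence. All 8 had a positive log2 fold change, with a median of 0.87 against 0.00 over all rows tested, and the sign turned in 1 case, *POX_a00030* without TE4-10 replicate 3 (-0.05). The limma test called 2 of them higher in GXUR001, against 9.74% of all rows, and 0 lower, while 5 had an unadjusted p under 0.05. *POX_d05671*, the cellobiohydrolase II gene, had 9657, 8968 and 7239 FPKM in GXUR001, against 4608 and 2321 FPKM in TE4-10. The strains did not overlap, and its log2 fold change was 1.66 ± 0.33 (SE, limma adjusted p = 0.0294, 0.0213 to 0.118 over the alternatives). *POX_b02315*, which encodes the AA9 monooxygenase Cel61A that cleaves cellulose by oxidation, had 1992, 2228 and 2599 FPKM in GXUR001, against 1817 and 1560 FPKM in TE4-10. The GXUR001 libraries all exceeded the TE4-10 libraries, and after rescaling this held for 26.7% of all rows. It had a log2 fold change of 0.70 ± 0.12 (SE, limma adjusted p = 0.0222, 0.0155 to 0.143 over the alternatives). Both calls were lost when any GXUR001 library was left out, that of *POX_d05671* also without TE4-10 replicate 3, and that of *POX_b02315* also with FPKM as deposited and with scaling by actin. Without GXUR001 replicate 1 or 2, 0 of the 8 were called by limma and 4 had an unadjusted p under 0.05 in each case, and without GXUR001 replicate 3 the GH1 β-glucosidase gene *POX_a00456* alone was called.

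The endoglucanase II gene *POX_c03950* had a log2 fold change of 1.51 ± 0.40 (SE, limma adjusted p = 0.0574) and the GH7 endoglucanase gene *POX_d04883* 0.90 ± 0.30 (SE, limma adjusted p = 0.0933). *POX_a00030* (endoglucanase Cel5C) had 0.32 ± 0.27 (SE), with nearly equal means of deposited FPKM, 964 ± 114 in GXUR001 and 966 ± 371 in TE4-10 (SD, n = 3 and n = 2). The β-glucosidase genes were far less abundant than the other enzyme genes. *POX_a00456* (GH1) averaged 7.44 FPKM in GXUR001 and 4.44 FPKM in TE4-10, and *POX_a00961* (GH3) 47.7 and 46.2 FPKM. Their log2 fold changes were 0.85 ± 0.22 (SE, limma adjusted p = 0.0546) and 0.33 ± 0.20 (SE). These 5 enzyme genes did not pass the threshold. Summed over the 2 cellobiohydrolase and 3 endoglucanase genes, FPKM was 23278, 20712 and 15883 in GXUR001, against 14442 and 7289 in TE4-10. The summed FPKM of *cdt-c* and *cdt-d* was 0.149, 0.161 and 0.181 of these sums in GXUR001, against 0.555 and 0.678 in TE4-10. The genes in both sums were chosen on these samples, so their separation is partly built in, and no background was computed for it.

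The place of these genes among all rows is given as a description, since the strain values chose them. Among all rows tested, 3.62% had a lower log2 fold change than *POX_c04185*, 7.94% a lower one than *POX_c04047* and 4.80% a lower one than *POX_a00594*.

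**Figure D4:**
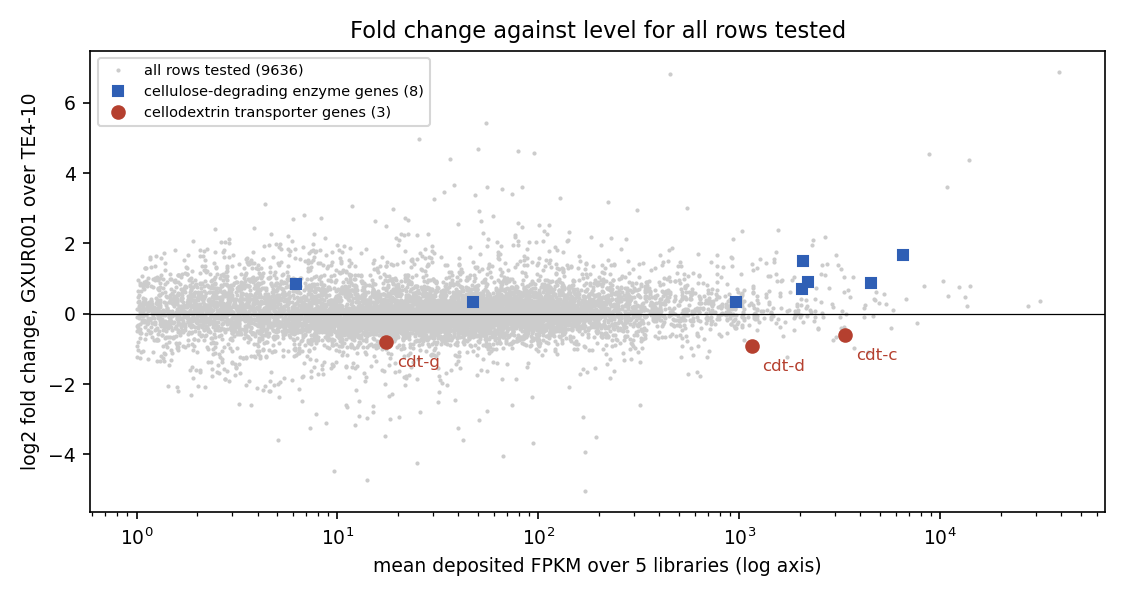
Log2 fold change of GXUR001 over TE4-10 after rescaling against the mean deposited FPKM (log axis) for the 9636 rows tested (grey), with the 8 cellulose-degrading enzyme genes as blue squares and the 3 transporter genes as red circles. The transporter genes lie between -0.91 and -0.62, and all 8 enzyme genes lie above 0.

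Likeness of expression was measured as the root mean square difference between the centred log2(rescaled FPKM + 1) values of 2 genes over the 5 libraries. It was computed against 7152 other rows with a mean of at least 10 FPKM and is given as a description. The measure includes the difference between strains, and the named transporter and enzyme genes were chosen on these samples. Their closeness to or distance from each other is therefore partly built in. *POX_c04185* was the 97th closest row to *POX_c04047*, at 0.158 against a median of 0.431, and *POX_c04047* was the 90th closest to *POX_c04185*. *POX_a00594* was the 37th closest to *POX_c04185*, at 0.124, and the 241st closest to *POX_c04047*. Cellobiohydrolase I was distant, in place 6456 for *POX_c04047* and 6579 for *POX_c04185*. The 5 nearest rows to *POX_c04047* were *POX_b02139* (0.034), *POX_c04325* (0.042), *POX_a01840* (0.044), *POX_a00284* (0.052) and *POX_a00746* (0.053). Those nearest to *POX_c04185* were *POX_h09869* (0.042), *POX_b02368* (0.043), *POX_f08361* (0.053), *POX_h09518* (0.061) and *POX_a00967* (0.066). Among these 10, *POX_b02368* and *POX_c04325* were the most abundant. *POX_b02368* averaged 367 ± 15.8 FPKM (SD, n = 3) in GXUR001 and 882 ± 239.5 FPKM (SD, n = 2) in TE4-10. *POX_c04325* averaged 397 ± 29.1 FPKM in GXUR001 and 769 ± 292 FPKM in TE4-10 (SD, n = 3 and n = 2). No function is given for them in the tables used here beyond the gene ID.

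*POX_c04047* and *POX_c04185* lie on the same chromosome of the HP7-1 assembly with 136 annotated genes between them, so they are not neighbours. The 2 genes on each side of each were examined because their choice did not rest on their values. Of these 8 genes 7 passed the filter, 2 were called lower in GXUR001 (8.08% of all rows were) and 0 higher. The gene before *POX_c04185*, *POX_c04184*, was also abundant, with 873, 770 and 676 FPKM in GXUR001, against 1370 and 1107 FPKM in TE4-10. The strains did not overlap, but its log2 fold change of -0.40 ± 0.19 (SE) missed the threshold, at an adjusted p of 0.194 by limma. The next gene out, *POX_c04183*, fell to 15.97, 16.25 and 18.59 FPKM in GXUR001, against 28.6 and 30.7 FPKM in TE4-10 (log2 fold change -0.51 ± 0.10, limma adjusted p = 0.0274, 0.0118 to 0.155 over the alternatives). Beside *POX_c04047*, *POX_c04049*, 2 places after it, fell to 24.8, 23.3 and 22.6 FPKM in GXUR001, against 49.6 and 41.0 FPKM in TE4-10 (log2 fold change -0.64 ± 0.13, limma adjusted p = 0.0315, 0.00962 to 0.132 over the alternatives). Both calls were lost with scaling by actin and when any GXUR001 library was left out, that of *POX_c04183* also without TE4-10 replicate 3 and that of *POX_c04049* also without TE4-10 replicate 1. *POX_c04045*, *POX_c04046* and *POX_c04048*, the other genes examined beside *POX_c04047*, had log2 fold changes of -0.10, 0.02 and 0.15 (SE 0.11, 0.15 and 0.09). Each of these took the other sign under at least 1 alternative. After *POX_c04185*, *POX_c04186* averaged 0.390 FPKM in GXUR001 and 0.645 FPKM in TE4-10 and was not tested, and *POX_c04187* had a log2 fold change of -0.29 ± 0.26 (SE) and overlapping strains.

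The gene table names 5 other transporters or permeases of small molecules, a list made after the values were seen and again drawn from genes the study called changed. All 4 that passed the filter had a negative log2 fold change, with a median of -0.42 against 0.00 over all rows tested. Against 8.08% of all rows, 1 of the 4 was called lower in GXUR001. That gene, *POX_c04285*, a general amino-acid permease of the GAP1 type, fell to 3.84, 3.59 and 3.34 FPKM in GXUR001, against 9.28 and 12.2 FPKM in TE4-10 (log2 fold change -1.11 ± 0.19, limma adjusted p = 0.0224, 0.00955 to 0.145 over the alternatives). The call was lost when any GXUR001 library or TE4-10 replicate 3 was left out. The ABC transporter gene *POX_a00150* had a log2 fold change of -0.17 ± 0.11 (SE) and overlapping rescaled values. *POX_c03891*, a putative transporter of the major facilitator family, had -0.51 ± 0.15 (SE, limma adjusted p = 0.0688). *POX_c04108*, of the cytosine/purine permease family, had -0.33 ± 0.15 (SE, limma adjusted p = 0.174). *POX_c04515*, a major facilitator transporter, averaged below 1 FPKM over the libraries and was not tested.

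**Figure D5:**
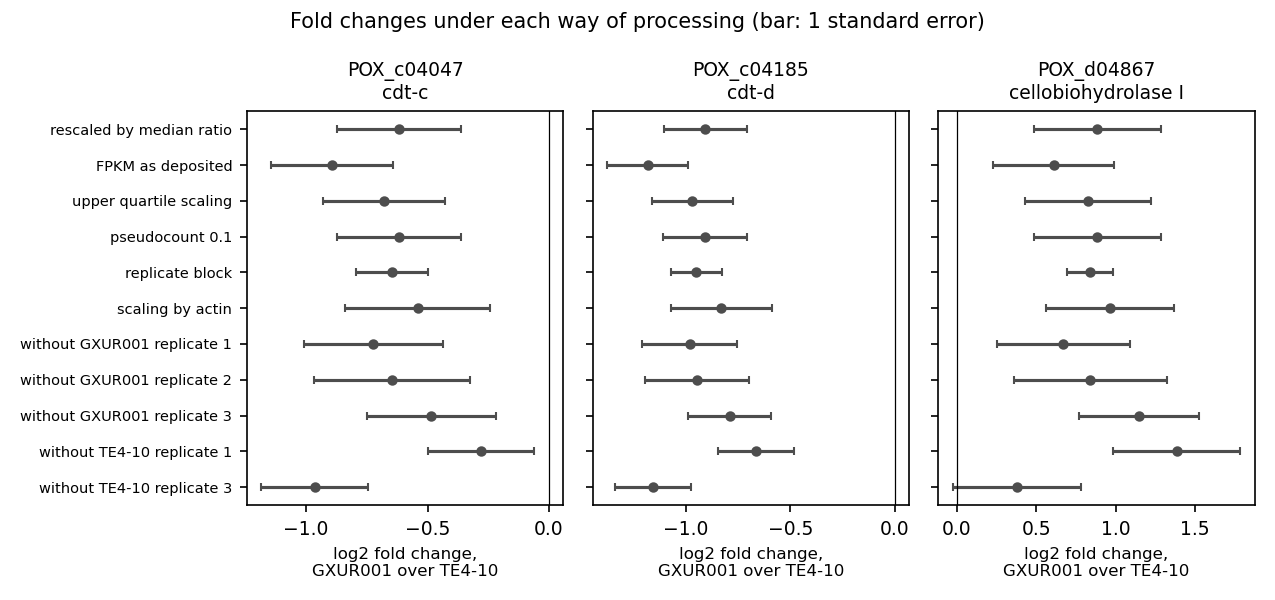
Log2 fold changes of *POX_c04047*, *POX_c04185* and cellobiohydrolase I (*POX_d04867*) under each way of processing; points are fitted values and bars 1 standard error, and the setting "rescaled by median ratio" is the one used in the text. The transporter genes stay below 0 and cellobiohydrolase I above 0 throughout, with *POX_c04047* nearest to 0 without TE4-10 replicate 1 (-0.28).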

How the data were processed

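Poly(A)-selected RNA was sequenced, and FPKM per gene was deposited by the authors separately for each library. The submitters' processing notes name bcl2fastq and HISAT2, and clean reads were matched to the *P. oxalicum* HP7-1 genome. The counting tool, strand setting, annotation version and assembly version are not given in the sources used here, so no coordinates are printed. How reads that fit more than 1 gene were counted is not known. From the deposited FPKM, libraries were rescaled by median ratio, and the 9636 rows whose mean FPKM reached 1 were fitted as log2(FPKM + 1) with limma 3.58.1 in R 4.3.3 (eBayes with a trend, 3 residual and 2.45 prior degrees of freedom), with Benjamini-Hochberg adjustment over all rows and a threshold of 0.05. The added 1 shrinks the fold change of weakly expressed genes. The fit was tested on simulated data. A permutation test of single genes was not used, since 3 libraries against 2 cannot pass the threshold. Plots were made in Python 3.11.15 with matplotlib 3.10.9.

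The members, gene lists and tests were chosen with earlier results of these data known. Named genes were the members, *POX_a00594*, the 8 enzyme genes, *PoxAmyR*, the 5 rows of most similar profile and the 2 annotated genes on each side. Gene order came from a RefSeq table (ASM172317v3) that matched 9718 of 9822 annotated rows. Read numbers were estimated from FPKM times gene span, introns included, in steps between 0.08 and 0.15. A planned comparison with homologous transporters needed protein sequences or product names, and was not run.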

Additional observations from a re-analysis of the deposited data

How the results depend on the processing

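Where a value changed, the cause was not tested beyond what the setting itself changes, and TE4-10 had only 2 libraries. Of all genes 1718 were called (939 higher, 779 lower), against 2661 with FPKM as deposited (463 higher, 2198 lower), 785 with scaling by actin (592 higher, 193 lower; chosen after seeing the data), 3436 at an unadjusted p under 0.05, and 17 to 1836 with 1 library left out, the lowest without GXUR001 replicate 2. Upper quartile scaling gave 1848 (794 higher, 1054 lower). Of the 8 enzyme genes 2 were called, against 1 as deposited, 1 with scaling by actin, 4 with annotated rows only, 5 at an unadjusted p and 0 to 3 with 1 library left out. As deposited, the log2 fold change was -1.18 for *POX_c04185* and -1.06 for *POX_a00594*. With 1 library left out it ran from -0.97 to -0.28 for *POX_c04047*, from -1.16 to -0.66 for *POX_c04185*, from -0.88 to -0.70 for *POX_a00594* and from 0.38 to 1.39 for *POX_d04867*, and the log2 difference in the *POX_c04047* to *POX_c04185* ratio from 0.20 to 0.39. These genes and ratios changed sign under 0 of the alternatives run. The alternatives planned for homologous transporters were not run.

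The replicate numbers of the strains share no stated source, and deviations of same-numbered libraries correlated at -0.00664 and 0.0373, so the numbers were not taken as pairs. With the replicate number as a block, 0 genes and 0 of the 8 enzyme genes were called by limma, with 1 residual degree of freedom, while 2476 and 6 had an unadjusted p under 0.05. In that fit *POX_c04047* had -0.65 ± 0.15 (SE) and *POX_c04185* -0.95 ± 0.12 (SE). With the same block, the log2 ratio to cellobiohydrolase I differed by -1.49 ± 0.08 (SE) for *POX_c04047* and -1.79 ± 0.03 (SE) for *POX_c04185*. These smaller errors also rest on 1 residual degree of freedom.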
